A study of Mus musculus with 4 samples.

Results

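Fas, its ligand and 8 further genes of TNF family signalling were followed across 4 lines of the mouse leukemia cell L1210. The genes were chosen by name, as Fas, Fasl, Tnfsf18, Tnfrsf18, Tnf, Ltb, Cd40, Traf1, Birc3 and Tnfaip3, and every probe of the deposited table that carries 1 of these symbols was taken. This gave 10 of 24561 gene symbols and 11 of the 33822 probes that have a symbol, since Birc3 was read by 2 probes. The names were put together with the fold changes of these same arrays in view, so the fold changes below are a description and carry no test.

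L1210 is a lymphocytic leukemia line from DBA mice (subline 212). Fbxw11 is an F-box protein, the part of an SCF ubiquitin ligase that binds the substrate, and the study asked what raised levels of its splice variants do to gene expression in these cells. L1210-Fbxw11a received the full-length variant, L1210-Fbxw11c a variant without exon 2 and L1210-Fbxw11d a variant without exons 2 and 3, each through a lentivirus, while L1210-Control is the stable transfection labelled as control. Below, values "with Fbxw11a", "with Fbxw11c" and "with Fbxw11d" are those of the line carrying that variant. All 4 are GFP+ populations isolated by flow cytometry and grown in RPMI medium with serum, and each line is 1 population with 1 array, so no difference below has a replicate array. The study also ran RT-PCR and western blots, whose values are not used here.

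Ligands of the TNF family are mostly trimeric membrane proteins that cluster receptors on a neighbouring cell. Fas and TNF receptor 1 carry a death domain, through which they can assemble a caspase-activating complex, whereas most other receptors of the family recruit TRAF adaptors and the cellular inhibitors of apoptosis and switch on NF-κB. Several genes of the pathway, Tnfaip3, Birc3, Traf1, Fas and Tnf among them, are themselves known NF-κB targets, and Fas with its ligand is best known in lymphocytes for removing activated cells.

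Signals are background-corrected intensities brought to the scale of the L1210-Control array by the 75th percentile of each array. These percentiles were 620.2 for the control line, 627 with Fbxw11a, 672 with Fbxw11c and 954 with Fbxw11d, and 62.5% to 68.7% of all probes lay well above background. The lowest signal of a probe with every spot well above background, called the detection limit here, was 18.1, 14.4, 14.9 and 10.4 in the same order. The L1210-Fbxw11d array stood alone on slide 2 and the other 3 shared slide 1. For this line slide and variant therefore cannot be told apart. After scaling by the 75th percentile, its E1A spike-in RNAs (8 probes) differed from those of L1210-Control by -0.59 on the log2 scale. On the other 2 Fbxw11 arrays the scaled differences were 0.13 and 0.15. Before scaling they were 0.04 with Fbxw11d, 0.14 with Fbxw11a and 0.27 with Fbxw11c, so the -0.59 appeared only after the scaling. Fbxw11 itself was read by 2 probes whose log2 ratios to L1210-Control were 0.31 and 0.21 with Fbxw11a, 0.27 and 0.22 with Fbxw11c, and 0.03 and 0.18 with Fbxw11d, so these array probes gave no clear check of the labels, for which the study used RT-PCR and western blotting. An error after ± is the scanner software's error of the signal. An error of a log2 ratio is the SD between spots carrying the same probe, taken from probes of like brightness that were printed on 10 spots, and it holds nothing of culture, sorting or labelling.

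The probes behind the results are 60-base oligonucleotides, and the first 30 bases of those for the genes that moved are shown because each fold change rests on this stretch of 1 transcript. On mm9 they lie at chr19:34402164-34402223 (Fas, plus strand), chr1:163711056-163711115 (Fasl, minus strand), chr1:163435352-163435411 (Tnfsf18, plus strand), chr9:7854409-7854468 (Birc3, brighter probe, minus strand) and chr9:7856162-7856221 (Birc3, dimmer probe, minus strand).
Fas: gaagaccttccattgatggacagttctttt
Fasl: gcaatgatgtctgtgtgtttgtatgtatga
Tnfsf18: gggcacaaagactcttctgtttgcatatct
Birc3, brighter probe: agaactacaggaccgtcagtgacctcgtta
Birc3, dimmer probe: acagataatgcccagctaatagaacagggt
The Fas probe starts at base 1389 of its transcript, the Fasl probe at base 1641 and the Tnfsf18 probe at base 1994. Fasl and Tnfsf18 were also among the genes for which the study designed RT-PCR primers, and these primers are separate from the array probes.
Fasl forward primer: cacttcatcttgggctcctc
Fasl reverse primer: tgttgtggtccttcttcttt
Tnfsf18 forward primer: tcatggctcttgtgcatagt
Tnfsf18 reverse primer: ttcccatcagatgtcgtatt

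Of the 10 genes, 8 were measured on all 4 arrays, and Ltb and Cd40 were not well above background on any. With a fold change of 2 as the threshold, Fasl was the 1 gene higher in L1210-Fbxw11a and Fas the 1 gene lower. In L1210-Fbxw11c Fasl and Tnfsf18 were higher and Fas and Birc3 lower, and in L1210-Fbxw11d Fasl and Tnfsf18 were higher and Fas lower. Across all genes compared, 2.43% were higher and 2.02% lower with Fbxw11a, 1.61% and 2.27% with Fbxw11c, and 1.05% and 4.7% with Fbxw11d. The balance of the last pair moved with the scaling, to 2.23% and 3.14% with median centring, 1.76% and 3.36% with quantile normalization, and 10.3% and 1.87% when scaled on the E1A spike-in RNAs, which gave 1.88% and 2.51% with Fbxw11a and 1.2% and 3.01% with Fbxw11c. In all 3 lines together Fasl was higher and Fas lower by 2-fold or more, beside 0.214% and 1.34% of all genes in these directions. All 3 comparisons use the same control array, and the genes were picked with these ratios known, so nothing is read from the shares.

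**Figure D1:**
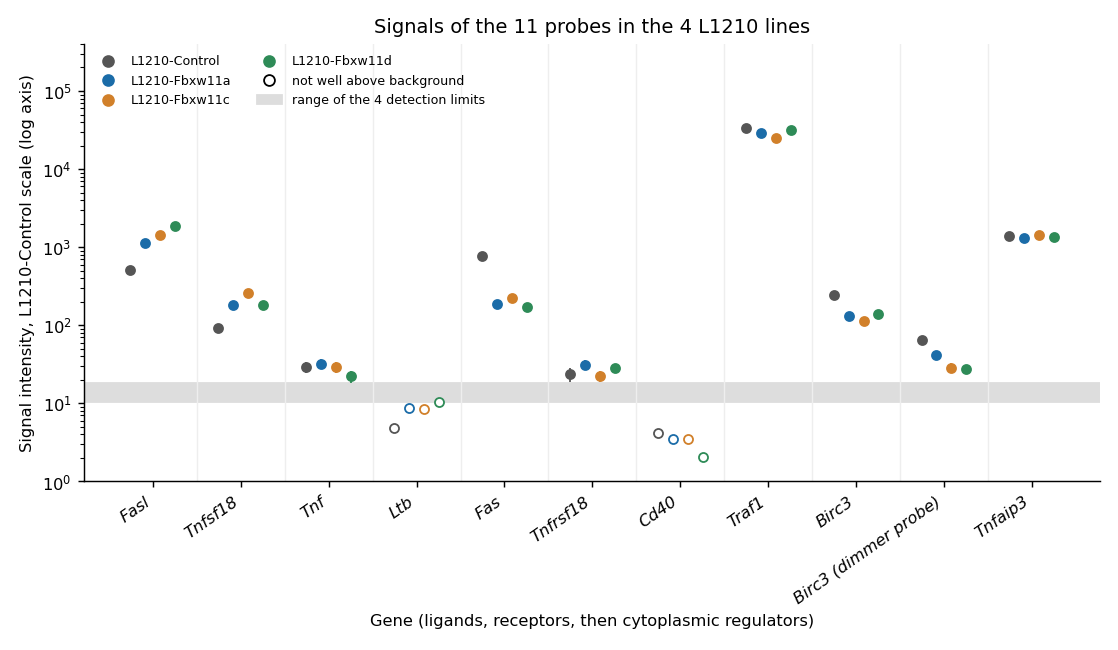
Signal intensity of the 11 probes (log axis, scaled to L1210-Control) in the 4 lines, 1 array each, with ligands first, then receptors, then cytoplasmic regulators. Bars are the scanner software's error and are mostly smaller than the points, open points are not well above background, and the grey band spans the 4 detection limits. Fas is highest in L1210-Control at 780.2, Fasl lowest there at 517, and Ltb and Cd40 lie below or at the edge of the band on every array.

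Fasl, the ligand of Fas and a type II membrane protein of cytotoxic lymphocytes, had a signal of 517 ± 51.8 in the control line, 1145 ± 115 with Fbxw11a, 1453 ± 145 with Fbxw11c and 1877 ± 188 with Fbxw11d. The control was the lowest of the 4 and the full-length variant the lowest of the 3 Fbxw11 lines. The log2 ratios to L1210-Control were 1.15 ± 0.09, 1.49 ± 0.09 and 1.86 ± 0.12, each 12.3 to 15.9 times the SD between spots. Among genes measured on both arrays, 171 of 16514 had a higher ratio than Fasl with Fbxw11a, 46 of 16421 with Fbxw11c and 13 of 16538 with Fbxw11d. Between the Fbxw11 lines, Fasl was higher in L1210-Fbxw11c than in L1210-Fbxw11a by 0.34 ± 0.10 on the log2 scale and higher in L1210-Fbxw11d than in L1210-Fbxw11c by 0.37 ± 0.13. Both steps exceeded the SD between spots, and neither reached 2-fold, although with E1A scaling the second was 1.11, past 2-fold.

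Tnfsf18, the ligand known as GITRL that costimulates T cells through GITR, had a signal of 91.3 ± 9.89 in the control line, 181.9 ± 18.4 with Fbxw11a, 255.7 ± 25.8 with Fbxw11c and 182.9 ± 18.4 with Fbxw11d. All 3 Fbxw11 lines lay above the control, with L1210-Fbxw11c the highest and the other two level with each other on this scale. The fold changes were 1.99, 2.80 and 2.00, so that the first fell just short of the threshold and the third just reached it. On the log2 scale these were 0.995 ± 0.257, 1.486 ± 0.242 and 1.003 ± 0.263. With normexp background correction, which adds an offset of 50 to every signal, the log2 ratios were 0.66, 0.97 and 0.53, and the gene passed 2-fold in no line. L1210-Fbxw11d and L1210-Fbxw11a differed by 0.01 ± 0.18, whereas L1210-Fbxw11c exceeded L1210-Fbxw11a by 0.49 ± 0.15. With E1A scaling this order changed, and Tnfsf18 in L1210-Fbxw11d exceeded L1210-Fbxw11a by 0.72 and L1210-Fbxw11c by 0.26.

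Tnf, the cytokine that gives the family its name, was printed on 10 spots and lay just above the detection limit. Its signal was 29.3 ± 4.99 in the control line, 32.2 ± 4.63 with Fbxw11a, 29.3 ± 4.51 with Fbxw11c and 22.1 ± 3.85 with Fbxw11d. On the last array 6 of the 10 spots were well above background, and single spots ranged from 6.31 to 59.3. The log2 ratios were 0.14 ± 0.19, 0.00 ± 0.21 and -0.40 ± 0.42 (SE over its own spots), all within their error in these 3 comparisons. Ltb, which with lymphotoxin alpha forms the ligand of the lymphotoxin beta receptor, gave 4.85, 8.80, 8.59 and 10.3 in the same order of lines. It was well above background on no array and so has no fold change.

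Fas, the death receptor that binds Fasl, had a signal of 780.2 ± 78.1 in the control line, 185.8 ± 18.9 with Fbxw11a, 225.8 ± 22.8 with Fbxw11c and 171.4 ± 17.3 with Fbxw11d. The control stood far above all 3 Fbxw11 lines, which lay within 1.32-fold of each other (1.51-fold with E1A scaling). The probe was printed on 2 spots, and these read 764.5 and 796.2 on L1210-Control against 178.2 and 193.7, 222.5 and 229.2, and 170.9 and 171.9 on the other arrays, so no spot of a Fbxw11 line came near a control spot. The log2 ratios were -2.07 ± 0.13, -1.79 ± 0.11 and -2.19 ± 0.16, that is 4.20-, 3.45- and 4.55-fold lower. Among genes measured on both arrays, 38, 50 and 58 had a lower ratio than Fas in the 3 lines. L1210-Fbxw11d differed from L1210-Fbxw11a by -0.12 ± 0.19, within the error, and from L1210-Fbxw11c by -0.40 ± 0.17. With E1A scaling both directions turned, to 0.60 and 0.34, and with median centring the first was 0.12, so the order of Fas among the Fbxw11 lines depends on the scaling.

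Fas was thus highest and Fasl lowest in L1210-Control, while among the Fbxw11 lines both were higher in L1210-Fbxw11c than in L1210-Fbxw11a, by 0.28 ± 0.15 and 0.34 ± 0.10. Their log2 ratios moved apart by the largest amounts in L1210-Fbxw11d, where Fas was at -2.19 and Fasl at 1.86. As RNA came from whole populations, fewer cells with a transcript and less transcript per cell cannot be told apart.

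Tnfrsf18, the receptor GITR that binds Tnfsf18, was dim on every array. Its signal was 23.6 ± 4.60 in the control line, 31.4 ± 4.45 with Fbxw11a, 22.4 ± 3.89 with Fbxw11c and 28.6 ± 3.54 with Fbxw11d. The log2 ratios of 0.41 ± 0.60, -0.08 ± 0.69 and 0.28 ± 0.83 were all smaller than the SD between spots at this brightness. No difference was detectable at this brightness. Cd40, the receptor through which T cells help B cells, read 4.16, 3.46, 3.47 and 2.07 and was not well above background on any of the 4 arrays.

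**Figure D2:**
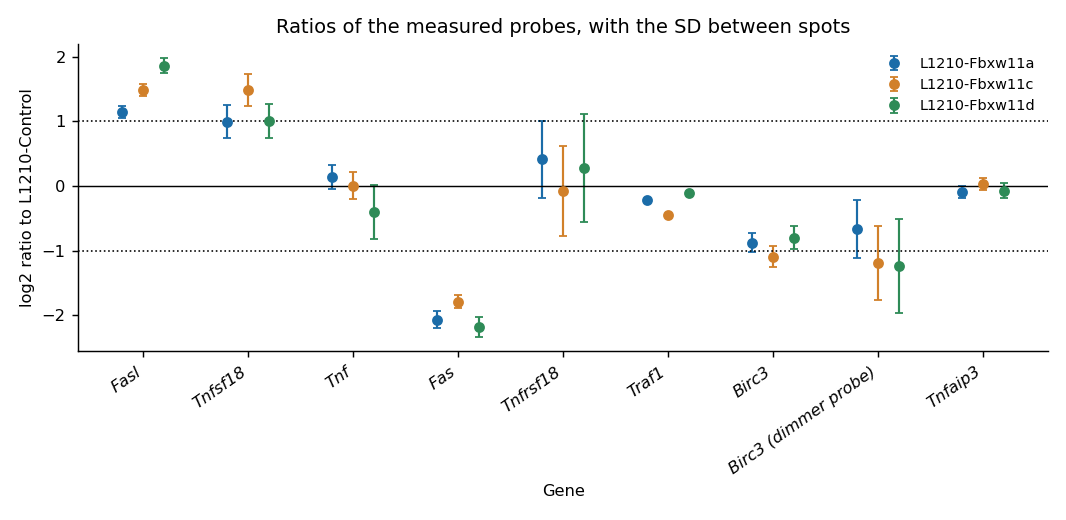
Log2 ratio to L1210-Control (vertical axis) of the 9 probes measured on all 4 arrays, for the 3 Fbxw11 lines. Bars are the SD between spots of like brightness, for Tnf the SE over its own spots, and Traf1 has no bar because too few spots were as bright. Dotted lines mark 2-fold. Fas lies at -1.79 or below in all 3 lines, Fasl at 1.15 or above, and Traf1 and Tnfaip3 stay between the dotted lines.

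Among the cytoplasmic regulators, Birc3 was lower in all 3 lines, Traf1 was lower by less, and Traf1 and Tnfaip3 stayed within 2-fold. Birc3 encodes cIAP2, a ubiquitin ligase of the TNF receptor complex. Its brighter probe read 244.9 ± 24.8 in the control line, 133.4 ± 13.7 with Fbxw11a, 114.5 ± 11.9 with Fbxw11c and 140.8 ± 14.2 with Fbxw11d. All 3 Fbxw11 lines were below the control and close to each other. The log2 ratios were -0.88 ± 0.15, -1.10 ± 0.16 and -0.80 ± 0.18, and only the second passed 2-fold. The dimmer probe read 65.7 ± 7.68, 41.3 ± 5.31, 28.7 ± 4.41 and 27.9 ± 3.48 in the same order. It was lower in the same 3 lines, with log2 ratios of -0.67 ± 0.45, -1.19 ± 0.57 and -1.24 ± 0.73, so the 2 probes gave the same direction and differed on which lines passed 2-fold. Scaled on the E1A spike-in RNAs instead, the brighter probe gave -1.004, -1.252 and -0.213, and normexp background correction took the value of L1210-Fbxw11c to -0.87, short of 2-fold.

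Traf1, an adaptor that joins Traf2 and the cellular inhibitors of apoptosis at TNF receptors, gave a bright signal of 33895 ± 3390 in the control line, 29027 ± 2903 with Fbxw11a, 24769 ± 2477 with Fbxw11c and 31510 ± 3151 with Fbxw11d. The log2 ratios were -0.22, -0.45 and -0.11. With Fbxw11c, 999 of 16421 genes had a lower ratio than Traf1, a place like that of Birc3 with Fbxw11d (944 of 16538). Over the 10 settings the Traf1 ratio ranged from -0.61 to -0.38 with Fbxw11c and from -0.15 to 0.48 with Fbxw11d. No gene spot was saturated on any array. Too few probes with 10 spots were as bright on L1210-Control to give an error for these ratios. Tnfaip3, the ubiquitin-editing enzyme A20 that dampens NF-κB signalling, read 1409 ± 141, 1314 ± 131, 1437 ± 144 and 1338 ± 134 in the 4 lines. Its log2 ratios were -0.10 ± 0.09, 0.03 ± 0.09 and -0.07 ± 0.12, and the largest difference from L1210-Control was 1.07-fold on this scaling. Over the 10 settings the Tnfaip3 ratio ranged from -0.13 to 0.10 with Fbxw11c and from -0.13 to 0.51 with Fbxw11d. Its direction in these 2 lines thus depends on the processing.

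Around these genes, 86 further genes of the pathway were listed, of which 85 were on the array and 75 were measured on at least 1 array. In L1210-Fbxw11a none of 73 compared was higher by 2-fold or more and 2, Tnfsf15 and Tnfrsf19, were lower. In L1210-Fbxw11c 1 of 72, Cd27, was higher, and 3, Tnfsf15, Tnfrsf19 and Tnfrsf26, were lower. The Tnfrsf19 call in this line is a bound, since its probe was not well above background there. A second, dimmer Tnfrsf19 probe gave 0.05, also as a bound. Cd27 (27.8 in the control line, 64.7 with Fbxw11c) and Tnfrsf26 (45.9 and 18.0) were dim, and no error is given for these calls. In L1210-Fbxw11d none of 74 was higher and Tnfsf15 alone was lower. The lower genes were 2.74%, 4.17% and 1.35% of those compared, beside 2.02%, 2.27% and 4.7% of all genes, and the higher gene with Fbxw11c was 1.39%, beside 1.61%, so with counts this small the list is not set apart from all genes. The median log2 ratios of the further genes measured on both arrays were -0.05, -0.02 and -0.01, beside 0.00, 0.02 and 0.04 for all genes. Cd27, Tnfrsf19 and Tnfrsf26 are named after their values were seen.

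**Figure D3:**
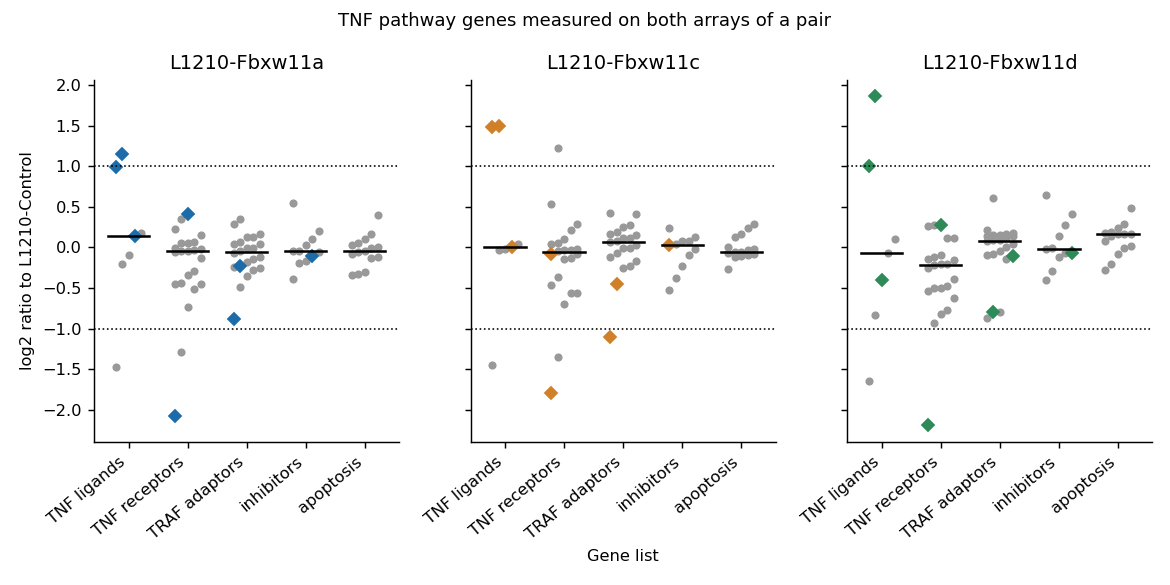
Log2 ratio to L1210-Control of every gene of the 5 TNF pathway lists measured on both arrays, with 1 panel per Fbxw11 line. Coloured diamonds are the genes described here, grey points the other listed genes, black bars the medians of all points of a list, and dotted lines mark 2-fold. In each panel the receptor, adaptor, inhibitor and apoptosis medians lie between -0.22 and 0.16.

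Of the 18 TNF ligands listed, 9 were measured on at least 1 array. Besides Fasl and Tnfsf18, the ligand past 2-fold in any line was Tnfsf15, which binds the death receptor DR3. It had signals of 228, 82.6, 83.6 and 72.7, 2.76-, 2.73- and 3.14-fold lower than in L1210-Control. Lta, the partner of Ltb, and Cd40lg, the ligand of Cd40, were well above background on none of the 4 arrays. Thus neither side of the Cd40 pair was measured.

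Of the 28 TNF receptors listed, 24 were measured on at least 1 array. Fas was the 1 receptor lower by 2-fold or more in all 3 lines, beside 1.34% of all genes. As Fas was chosen with its ratios known, nothing is read from this count. Tnfrsf1a, the death-domain receptor of Tnf, read 4487, 4672, 4383 and 4141, with log2 ratios of 0.06, -0.03 and -0.12. Tnfrsf1b, its second receptor, read 236.2, 165.5, 160.7 and 169.9, with ratios of -0.51, -0.55 and -0.48. Ltbr, the receptor of Ltb, read 7700, 8085, 8011 and 9316, with ratios of 0.07, 0.06 and 0.27. The receptors of Tnf and Ltb were thus measured on all 4 arrays and did not reach 2-fold in any line.

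Of the 23 TRAF adaptors and partners of the receptor complex, all were measured on at least 1 array, and Birc3 in L1210-Fbxw11c was the 1 call. Birc2, the close relative of Birc3 whose probe lies 35.7 kb away, read 1084, 960.7, 1000.2 and 1154, with log2 ratios of -0.17, -0.12 and 0.09. Traf2, the adaptor that binds Traf1, read 18894, 13525, 16098 and 10894, with ratios of -0.48, -0.23 and -0.79. None of the 11 deubiquitinases and inhibitors, to which Tnfaip3 belongs, passed 2-fold in any line. Of all genes, 1.05% to 4.7% were called per direction and line. Lists of 23 genes with 1 call and of 11 genes without a call are thus not set apart from all genes.

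The 16 genes of death receptor apoptosis were all measured on at least 1 array, and none passed 2-fold in any of the 3 lines. As 2.43% and 2.02%, 1.61% and 2.27%, and 1.05% and 4.7% of all genes were higher and lower, a list of 16 genes without a call is not set apart from all genes. Fadd, the adaptor between Fas and caspase-8, read 1206, 954.4, 1110 and 1355, with log2 ratios of -0.34, -0.12 and 0.17. Casp8, the initiator caspase, had ratios of 0.06, -0.07 and 0.24. Cflar, which encodes the caspase-8 inhibitor c-FLIP, had ratios of 0.16, -0.06 and -0.01 by the brightest of its 4 probes. The other 3 Cflar probes gave 0.09 in L1210-Fbxw11a, -0.42 to -0.30 in L1210-Fbxw11c and -0.53 to -0.22 in L1210-Fbxw11d, so the probes differed in the latter 2 lines and all stayed within 2-fold.

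Fasl and Tnfsf18 lie 276 kb apart by their probes on chromosome 1 and were both higher, so the genes around them were read as well. Within 1 Mb of the Fasl probe were 24 other genes, and 17 of them were measured on all 4 arrays. Their median log2 ratios were 0.12, 0.05 and 0.10. The highest value among them was that of Tnfsf18 in each of the 3 lines, and the lowest were -0.62, -0.51 and -0.77, all from Rc3h1, which encodes the RNA-binding protein Roquin. Suco, whose probe is nearest to that of Fasl at 36.8 kb, had ratios of 0.11, 0.32 and 0.27. Tnfsf4, the OX40 ligand gene, was well above background on none of the 4 arrays.

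**Figure D4:**
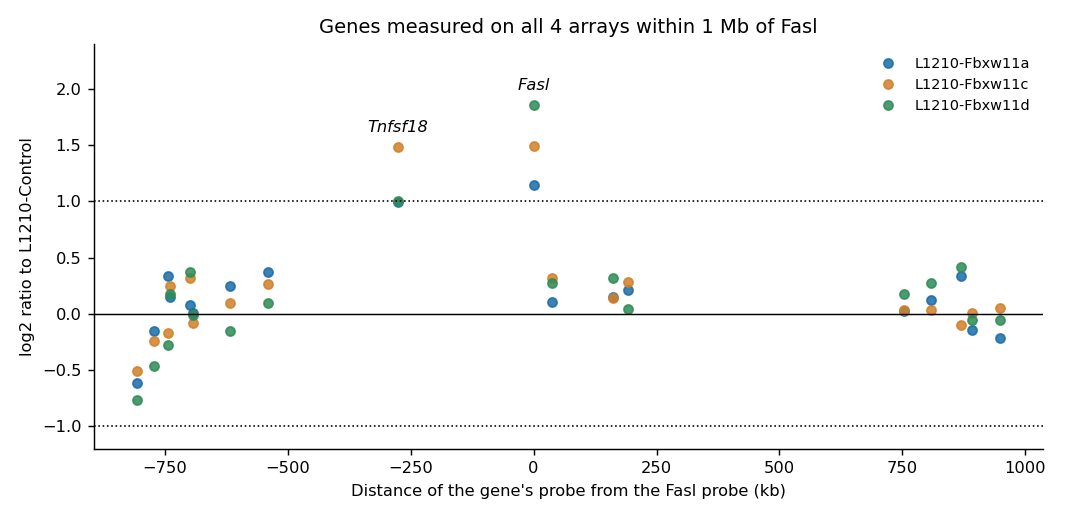
Log2 ratio to L1210-Control (vertical axis) of genes measured on all 4 arrays, by the distance of their probe from the Fasl probe in kb (horizontal axis), with 1 colour per Fbxw11 line and dotted lines at 2-fold. Fasl and Tnfsf18 are the only genes of this window above 0.5, and the lowest points, down to -0.77, belong to Rc3h1.

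Around Fas, 12 of 21 genes within 1 Mb were measured on all 4 arrays, with median log2 ratios of -0.07, -0.08 and -0.20, and none was past 2-fold in the same direction in all 3 lines. Stambpl1 and Acta2, the measured genes nearest to Fas, had ratios of -0.02, -0.18 and -0.12, and of -0.10, -0.17 and -0.39. Farther off, Lipf (1.04), Ifit3 (1.11) and I830012O16Rik (at least 1.41, not measured on L1210-Control) were past 2-fold higher with Fbxw11a, Lipo1 (2.703) was higher with Fbxw11c and Slc16a12 (-1.15) lower with Fbxw11d. Tnf and Ltb lie 3.70 kb apart on chromosome 17. Of the 127 other genes within 1 Mb of Tnf, Slc44a4 was higher and Ly6g6f lower by 2-fold or more in all 3 lines, beside 0.214% and 1.34% of all genes. Ly6g6f was measured on L1210-Control alone, with signals of 46.7, 4.23, 8.74 and 9.41, so its call is a bound against the detection limit. These neighbours are named with their values already known.

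The genes with the pattern most like Fas were found among 16249 genes measured on all 4 arrays, by the root mean square difference of the 3 log2 ratios. They were 6530409C15Rik (0.09), Nos2 (0.15), Cdhr3 (0.23), Gm11563 (0.30) and 6330409D20Rik (0.30). Nos2, the inducible nitric oxide synthase, had signals of 2737, 638.9, 669 and 578.8, which were 4.28-, 4.09- and 4.73-fold lower than in L1210-Control. The genes most like Fasl were Aldh1a7 (0.17), Pax8 (0.20), Olfr441 (0.21), Dclk2 (0.23) and Gpr137c (0.25). On L1210-Control, Aldh1a7, Dclk2 and Gpr137c read only 20.4, 19.8 and 20.8, near the detection limit of 18.1. The SD between spots for Tnfrsf18, at 23.6 on that array, was 0.46, larger than these differences, so the likeness of these 3 genes is uncertain. Pax8, a paired box transcription factor, had signals of 168.8, 388.2, 441 and 765.4, with fold changes of 2.30, 2.61 and 4.53. With 3 ratios that share 1 control array, such likeness is a description of these arrays.

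Promoter sequences from RefSeq (GRCm38.p6, 250 bases before to 50 after the start) were at hand for 9 of the 10 genes, in 10 windows. The NF-κB consensus was searched on both strands. It was found in 2779 of 32851 promoters, or 8.46%, and in the window of Ltb and 1 of the 2 windows of Tnfaip3. No match was in the other Tnfaip3 window or in those of Fas, Fasl, Tnfsf18, Tnfrsf18, Tnf, Traf1 and Birc3, which says only that these letters are not in these stretches. The matches are shown in capitals with the bases around them, since they are the places where this search touched the family. That of Ltb (chr17:35194395-35194454, plus strand) starts 87 bases before the start site, and those of Tnfaip3 (chr10:19015501-19015560 and chr10:19015411-19015447, minus strand) start 125 and 12 bases before it. Each is printed along the strand of its gene, and the Ltb match and the proximal Tnfaip3 match read as the consensus on the opposite strand, the distal one on both.
Ltb: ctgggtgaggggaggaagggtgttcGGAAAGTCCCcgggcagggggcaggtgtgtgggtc
Tnfaip3, distal: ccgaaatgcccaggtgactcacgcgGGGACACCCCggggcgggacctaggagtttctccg
Tnfaip3, proximal: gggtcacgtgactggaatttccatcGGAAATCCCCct
Of the genes with a match, Ltb has no fold change because it was not well above background, and Tnfaip3 stayed within 2-fold.

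Markers of blood and stromal cells were read beside these results. Of 14 B lymphoid markers on the array 8 were measured on L1210-Control, and Cd79b, Ebf1, Igll1, Rag1, Rag2 and Ms4a1 were well above background on none of the 4 arrays. Of 14 T lymphoid markers 10 were measured there, with Cd3d, Cd3g and Thy1 not well above background on any array, and Cd28, the costimulatory receptor, was 2.25-, 2.25- and 2.59-fold lower in the 3 lines. Of 12 myeloid markers 10 were measured there, and of 8 stromal markers 5. The summed signal ran from 19158 to 24003 for the B lymphoid list, from 5651 to 5932 for the T lymphoid, from 62434 to 78089 for the myeloid and from 29388 to 34857 for the stromal list, with L1210-Fbxw11d the lowest for the last 2. Single genes carried these sums, Blnk 95.4% to 96.8% of the B lymphoid, Cd4 48.8% to 53.4% of the T lymphoid, Csf3r 69.3% to 76.3% of the myeloid and Fn1 98.6% to 98.9% of the stromal sum. Without them the sums ran from 736.8 to 890.2, from 2631 to 2965, from 18356 to 21745 and from 381.3 to 463, and the lowest myeloid sum was then that of L1210-Fbxw11c. The part of these markers in the values of Fas, Fasl and Tnfsf18 was not tested.

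**Figure D5:**
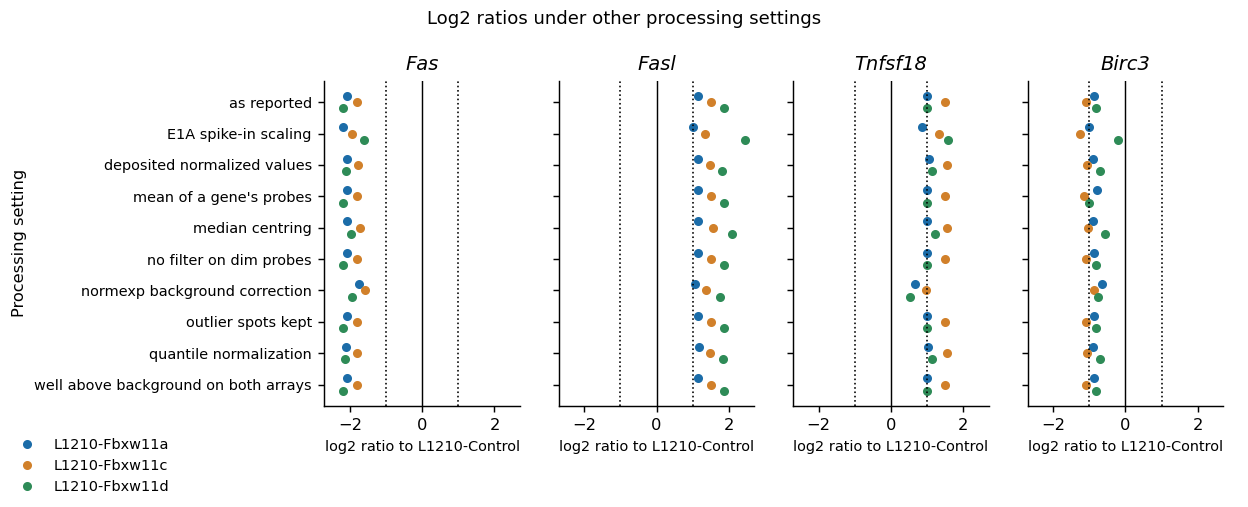
Log2 ratio to L1210-Control (horizontal axis) of Fas, Fasl, Tnfsf18 and Birc3 as reported and under 9 other processing settings (vertical axis), with 1 colour per Fbxw11 line and dotted lines at 2-fold. Fas stays at -1.59 or below and Fasl at 1.02 or above under all settings shown, whereas Tnfsf18 and Birc3 cross the 2-fold lines.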

How the data were processed

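Total RNA of 4 lines was labelled with Cy3 and hybridised to 1 Agilent SurePrint G3 mouse array each. The authors deposited, per array, Agilent Feature Extraction output (version 9.1 in the submitters' processing notes, 10.7.1.1 per the file headers) with a background-corrected signal intensity per spot, and a table of log2 values normalized across the arrays by a method not given in the sources used here, with symbols and mm9 coordinates. Log2 of the processed signal minus the array's own 75th percentile over gene spots was used. Spots called outliers were left out, spots of a probe were averaged, and a probe counted as measured when at least 0.5 of its spots were well above background. Where this held on only 1 array of a pair, the ratio was a bound. It was taken against the detection limit or the probe's own signal on the other array, whichever was higher. The detection limit was the lowest signal of a probe with every spot well above background. A gene was taken by its brightest probe, and the threshold was 2-fold. The number of arrays limits the precision. The members and gene lists were chosen with earlier results of these data known. Named genes were the members, TNF pathway list genes past 2-fold one way in all 3 lines, 10 fixed partners, and the 5 genes most like Fas and Fasl. Cd27, Cd28, Tnfrsf19, Tnfrsf26, Blnk, Cd4, Csf3r, Fn1, the neighbours of Fas, Fasl and Tnf, and markers not well above background lie outside this rule. They were named after their values were seen. Calling of fold changes was tested on simulated data, whose outcome is not given here, so no call above rests on it. R 4.3.3, limma 3.58.1, Python 3.11.15, numpy 2.4.6 and pandas 2.3.3 were used.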

Additional observations from a re-analysis of the deposited data

How the results depend on the processing

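Fas stayed lower and Fasl higher by 2-fold or more in all 3 lines under median centring, quantile normalization, E1A scaling, normexp background correction, the deposited values and the filters tried. Their log2 ratios ranged from -2.20 to -1.59 and from 1.02 to 2.45. At a threshold of 1.5-fold, 2 of the genes were higher and 2 lower in L1210-Fbxw11a, 2 were lower in L1210-Fbxw11d, and 2 were higher and 2 lower in all 3 lines, beside 5.95% and 4.81% of all genes with Fbxw11a, 9.81% lower with Fbxw11d, and 0.887% and 2.41% in all 3. At 3-fold, 0 were higher with Fbxw11a, 0 with Fbxw11c and 1 with Fbxw11d, 1 was lower in L1210-Fbxw11c and 0 were higher in all 3, beside 0.954%, 0.553%, 0.174%, 1.13% and 0.029% of all genes. Quantile normalization and the deposited values each gave 2 higher genes in L1210-Fbxw11a and in all 3 lines, through Tnfsf18, beside 2.39% and 2.35% of all genes in the first and 0.284% and 0.272% in all 3. Normexp gave 1 higher and 1 lower in L1210-Fbxw11c and 1 higher in L1210-Fbxw11d, beside 0.327%, 0.874% and 0.179%. E1A scaling gave 2 lower in L1210-Fbxw11a, beside 2.51%, and the mean of a gene's probes and no filter on dim probes each gave 2 lower in L1210-Fbxw11d, beside 5.01% and 8.45%. Without the filter 3 were also higher there, the additions being Cd40 (-1.01) and Ltb (1.09), neither well above background on any array. Of the pathway genes outside the members, L1210-Fbxw11d had 4 higher with E1A scaling, 1 with the mean of probes, 1 without a filter and 3 at 1.5-fold, beside 10.3%, 2.75%, 3.07% and 4.87% of all genes, and 3 lower with the mean of probes, 4 without a filter and 9 at 1.5-fold. L1210-Fbxw11c had 0 higher with normexp and at 3-fold, and 5 lower without a filter, beside 4.08%, 1 with normexp and 0 at 3-fold. L1210-Fbxw11a had 1 lower with normexp, beside 0.68%, and 0 at 3-fold, beside 1.03%, and in all 3 lines 2 were lower at 1.5-fold and 0 at 3-fold, the latter beside 0.852%. Beyond what each setting itself changes, the cause was not tested. The median ratio of all genes moved by -0.13, -0.15 and 0.59 with E1A scaling and by 0.22 in L1210-Fbxw11d with median centring. Tnf, Tnfaip3, Traf1 and Tnfrsf18, all within 2-fold, took the other sign in 11 of their ratios. No replicate could be left out with 1 array per line. No paired analysis was possible because each group holds 1 sample. Signals near the detection limit, such as Tnf and Tnfrsf18, limit what can be seen.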
